A study of Homo sapiens with 8 samples.

Results

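The genes described here are the transcription factor NRF2 (gene NFE2L2), its inhibitor KEAP1, its relatives NRF1 (NFE2L1) and NFE2L3, the competing repressor BACH1, the small MAF partners MAFG, MAFF and MAFK, the autophagy receptor p62 (SQSTM1) and the tripartite-motif gene TRIM16L. They were chosen by gene name, 10 genes in all, out of the 63241 genes in the tables of NCI-H716 and the 28043 genes used from the table of HCT116. All 10 are listed in NCI-H716. The HCT116 table used here ends on chromosome 9, and 4 of the 10 (NFE2L2, NFE2L3, SQSTM1 and MAFK) lie within it, so the other 6 have values in NCI-H716 only.

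HCT116 and NCI-H716 are human colorectal cancer cell lines. Each was sequenced as control cells and as cells treated with Z325, the compound ZINC000101867325, which the study selected by docking as an inhibitor of fibroblast growth factor receptors. There were 2 libraries in each of the 4 groups, 8 in all, each amplified from about 100 cells, and the labels give no dose, treatment time, vehicle or shared batch. The question was how Z325 changes expression relative to control within each line. The labels of both lines call the treated libraries Test, and the study names Z325 as the treatment.

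NRF2 is made continuously and destroyed continuously. KEAP1 holds it in the cytoplasm and presents it to the ubiquitin ligase built on CUL3. When electrophiles or oxidants modify KEAP1, NRF2 escapes, pairs with a small MAF protein in the nucleus and switches on genes of glutathione synthesis, quinone reduction and NADPH supply through antioxidant response elements. BACH1 occupies the same elements with the same MAF partners and represses them. p62 carries cargo into autophagosomes, binds KEAP1 and so removes it, and its own gene is an NRF2 target. This regulation of NRF2 acts mostly on the protein, which RNA-seq does not measure.

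TGACTCAGC is one form of the core of an antioxidant response element. This word was looked for, on both strands (the other strand reads GCTGAGTCA), in the 3000 bases upstream of every RefSeq start in hg38. It contains the AP-1 word TGACTCA, so the same letters can be read as an AP-1 site. Of the 35116 starts, 3.99% hold it, and of the 27305 genes, 4.61% hold it before at least 1 start. Among the members, 8 have a RefSeq promoter entry, and 1 of these 8, SQSTM1, holds the word. SQSTM1 has 2 matches, shown here with 10 bases on either side because SQSTM1 is one of the genes that rose. Both lie on the minus strand of chromosome 5 while the gene lies on the plus strand, and capitals mark the word, as in all sequences below:
SQSTM1, chr5:179820543-179820571, 348 bases upstream of a start: ggcctggccaTGACTCAGCaatatcctca
SQSTM1, chr5:179819575-179819603, 1316 bases upstream of the same start: tggccaagcgTGACTCAGCagcccaggcg

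For comparison, of the 24 genes of the NRF2 target list that have a promoter entry, 5 hold the word, and 2 of them that rose are shown. NQO1 encodes the quinone reductase and ME1 encodes the cytosolic malic enzyme, and both elements are on the minus strand:
NQO1, chr16:69726997-69727025, 451 bases upstream of a start: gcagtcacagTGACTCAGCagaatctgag
ME1, chr6:83431170-83431198, 133 bases upstream of a start: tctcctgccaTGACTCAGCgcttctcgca
The central word is the same in all 4, and the bases around it differ. Both SQSTM1 matches lie in introns of longer GENCODE v44 transcripts of the gene itself, the NQO1 match lies in an exon of NQO1-DT, a divergent non-coding transcript, and the ME1 match lies in no annotated gene. A match describes these letters only, and no binding was measured.

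Library totals ran from 10210239 to 19738840 estimated counts in NCI-H716. In HCT116 they ran from 13183792 to 13396225 counts over the listed genes in 3 libraries, and Z325 replicate 2 held 3434620. The median log2 fold change of all tested genes was -0.01 in NCI-H716 and -0.03 in HCT116. Of the colorectal epithelial markers, 7 of 10 reached a mean of 1 CPM (counts per 1e6 library counts, TMM-normalised) in NCI-H716, with CDX1 at 0, and 7 of 8 enteroendocrine markers did. Of the 6 fibroblast markers, 4 also reached it in NCI-H716, with a summed level of 497 to 525 CPM in the controls and 475 to 513 CPM after Z325, and endothelial markers stayed under 1 CPM in sum. Other sums separated the groups in NCI-H716. The epithelial sum was 757 to 784 CPM in the controls and 647 to 658 CPM after Z325, the enteroendocrine sum 2798 to 3240 and 2692 to 2703 CPM, and the blood cell sum 8.48 to 8.82 and 10.6 to 10.8 CPM. Their part in the results below was not tested. In HCT116, 3 epithelial markers are listed and 1 reached a mean of 1 CPM. Their sum was 1424 to 1655 CPM in the controls and 1624 to 1654 CPM after Z325. Of 4 enteroendocrine markers listed there, 1 reached it. Their sum separated the groups, with 20.5 to 22.5 CPM in the controls and 14.8 to 17.8 CPM after Z325, and its part was not tested either. None of the markers that passed the filter on low counts was called (edgeR, adjusted p over 0.05). The fibroblast, blood and endothelial markers listed in HCT116 were all under 1 CPM on average, and their sums separated the groups at these low levels.

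In NCI-H716, 2 members were called, and both rose: TRIM16L about 9.01-fold and SQSTM1 about 3.05-fold. None of the 10 was called as lower. Of all 14142 genes tested in that line, 0.502% were called at an adjusted p under 0.05, 0.403% as higher and 0.099% as lower (edgeR quasi-likelihood test, Benjamini-Hochberg). Before adjustment, 6 members were higher and 0 lower at p under 0.05, against 7.59% of all tested genes higher, 9.27% lower and 16.9% in either direction. Both treated libraries lay above both controls for 7 of the 10 members and below for 0, and the groups of 3 overlapped. Among all tested genes 24.3% lay above, 25.1% lay below and 49.4% in all did not overlap. The median log2 fold change of the 10 was 0.70.

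**Figure D1:**
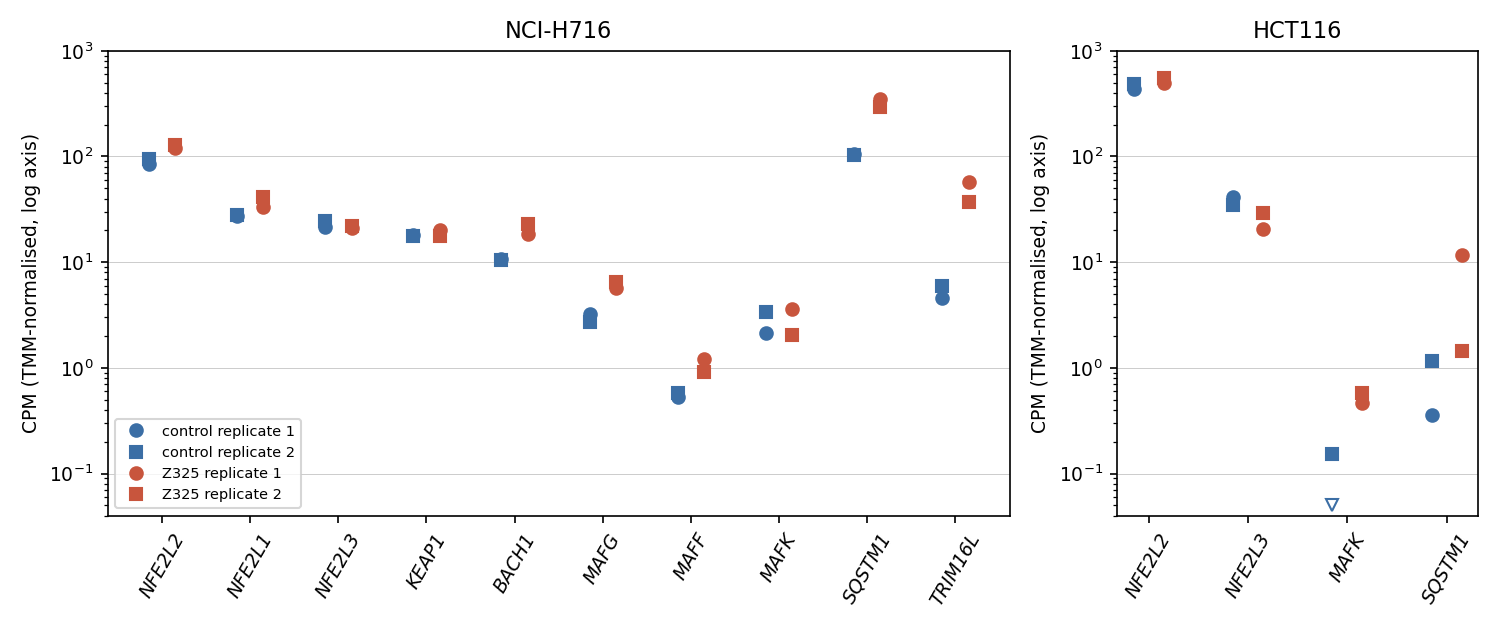
CPM of each gene in each library (log axis), with controls in blue and Z325 in red, circles for replicate 1 and squares for replicate 2, and an open triangle at the foot for a count of 0. In NCI-H716 the treated points of SQSTM1 and TRIM16L stand well above the controls, those of KEAP1, NFE2L3 and MAFK overlap, and in HCT116 SQSTM1 is high in 1 treated library only.

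SQSTM1 encodes p62, which links ubiquitinated cargo to the autophagosome membrane and traps KEAP1. The gene lies on the plus strand of chromosome 5 from 179806398 to 179838078 (hg38), and is protein coding. In NCI-H716 its level was 106.6 and 103.5 CPM in the controls and 350.7 and 291.2 CPM after Z325. The treated libraries stood apart from the controls, whose values were nearly equal. The control mean was 105 ± 2.22 CPM and the Z325 mean 320.9 ± 42.1 CPM (SD, n = 2 each). The log2 fold change was 1.61 (SE 0.17, edgeR adjusted p = 0.0022). Without any single library the value stayed between 1.48 and 1.75 and the call held. With limma on log2(FPKM + 1) the value was 1.62 and the adjusted p was 0.0555, and in a fit of all 8 libraries it was 1.62 with an edgeR adjusted p of 0.134. In bulk RNA a change in the level per cell and a change in the number of cells that express a gene cannot be told apart.

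The tail of SQSTM1 overlaps MRNIP on the opposite strand, which covers 21.0% of its exon bases, and the library kit gives no strand in the sources used here. MRNIP, known for a role in DNA repair, was listed at 15.1 and 28.8 CPM in the controls and at 87.0 and 107.7 CPM after Z325. It also passed the test (log2 fold change 2.16, SE 0.28, edgeR adjusted p = 0.0089). How many reads of each belong to the other was not tested. The sum of both genes does not depend on how the reads were split, and was 122 and 132 CPM in the controls and 438 and 399 CPM after Z325, a log2 ratio of means of 1.72.

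TRIM16L is a partial copy of TRIM16, a ubiquitin ligase gene that NRF2 is known to activate. The annotation (GENCODE v44) gives its name to a pair of records on the plus strand of chromosome 17. The one at 18697998 to 18736118, a long non-coding RNA, holds all the counts, and the other, a transcribed pseudogene at 18722237 to 18735460 that lies wholly within it, is listed at 0 in all 4 libraries. TRIM16L stood at 4.62 and 5.92 CPM in the controls, 61 estimated counts in each, and at 57.6 and 37.1 CPM after Z325, from 754 and 739 counts. Both treated libraries were several times above both controls. The log2 fold change was 3.17 (SE 0.28, edgeR adjusted p = 0.00080), and it stayed between 2.83 and 3.47 without any single library. With limma on log2(FPKM + 1) it was 2.58 with an adjusted p of 0.0753.

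Reads of TRIM16L and TRIM16 can be hard to separate, since 18.5% of the 100-base words of TRIM16L transcripts also occur in TRIM16. TRIM16 itself rose from 17.9 and 13.8 CPM to 57.2 and 36.3 CPM (log2 fold change 1.56, SE 0.26, edgeR adjusted p = 0.0284). The sum of the pair was 22.5 and 19.7 CPM in the controls and 115 and 73.5 CPM after Z325, a log2 ratio of means of 2.16. The treated libraries were above the controls in the sum as well.

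BACH1, the repressor that competes with NRF2 for its elements, did not pass the test but separated the groups. Its level was 10.6 and 10.4 CPM in the controls and 18.6 and 22.9 CPM after Z325, with no overlap between the groups. The log2 fold change was 0.98 (SE 0.23, edgeR adjusted p = 0.114). With DESeq2 it passed (adjusted p = 0.0427).

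Beside this, the length that RSEM assigned to BACH1 transcripts moved too. It was 1736 and 2321 bases in the controls and 3263 and 2360 bases after Z325. In TPM, the unit of transcript abundance that divides by that length, BACH1 stood at 5.32 and 3.79 in the controls and 4.50 and 7.83 after Z325, and the groups overlapped. On that scale limma gave 0.42 (SE 0.33) for log2(FPKM + 1). Whether the isoforms in use or the estimate of them differed was not tested.

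The small MAF proteins have no activation domain of their own and bind DNA as partners of NRF2 and BACH1. MAFG stood at 3.26 and 2.72 CPM in the controls and 5.73 and 6.43 CPM after Z325, without overlap, with a log2 fold change of 1.02 (SE 0.36, edgeR adjusted p = 0.205). MAFF was near the limit of detection, with 7 and 6 counts in the controls and 16 and 18 after Z325, and a log2 fold change of 0.92 (SE 0.72, edgeR adjusted p = 0.548). MAFK stood at 2.12 and 3.39 CPM in the controls and 3.59 and 2.06 CPM after Z325. Its groups overlapped and its log2 fold change was 0.03 (SE 0.49, edgeR adjusted p = 0.982). None of the 3 passed, and the standard errors of MAFF and MAFK leave room for changes of either sign or of considerable size.

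The RSEM length of MAFG also moved, from 3432 and 2829 bases in the controls to 2675 and 1995 bases after Z325. Its TPM therefore showed a larger difference than its CPM, 0.77 and 0.80 against 1.73 and 2.67. MAFG lies on the minus strand of chromosome 17 from 81918270 to 81927735, and 6.3% of its exon bases are shared with other annotated genes. MAFF and MAFK share 5.8% and 18.1%.

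NFE2L2 itself differed less. NRF2 transcripts stood at 84.0 and 94.0 CPM in the controls and at 121 and 127 CPM after Z325 in NCI-H716. The treated libraries lay above the controls. The means were 89.0 ± 7.07 and 124.2 ± 4.33 CPM (SD, n = 2 each), and the log2 fold change was 0.48 (SE 0.16, edgeR adjusted p = 0.1995), which did not pass.

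KEAP1, the sensor that hands NRF2 to the ligase, stayed close to its control level. It stood at 18.2 and 17.6 CPM in the controls and 20.1 and 17.6 CPM after Z325, and the groups overlapped in range. The log2 fold change was 0.07 (SE 0.22, edgeR adjusted p = 0.896). KEAP1 lies on the minus strand of chromosome 19 from 10486125 to 10503558, and none of its exon bases are shared with another gene, so its value does not depend on how overlapping reads were assigned.

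NFE2L1 encodes NRF1, the relative that sits in the endoplasmic reticulum membrane and restores proteasome genes when proteasomes fail. It stood at 27.0 and 27.8 CPM in the controls and 33.5 and 41.0 CPM after Z325, without overlap (log2 fold change 0.44, SE 0.20, edgeR adjusted p = 0.292). NFE2L3, a less studied relative that is known to be high in colorectal tumours, stood at 21.4 and 24.5 CPM in the controls and 21.2 and 21.9 CPM after Z325. Its groups overlapped (log2 fold change -0.09, SE 0.21, edgeR adjusted p = 0.867). Neither passed the test in NCI-H716.

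**Figure D2:**
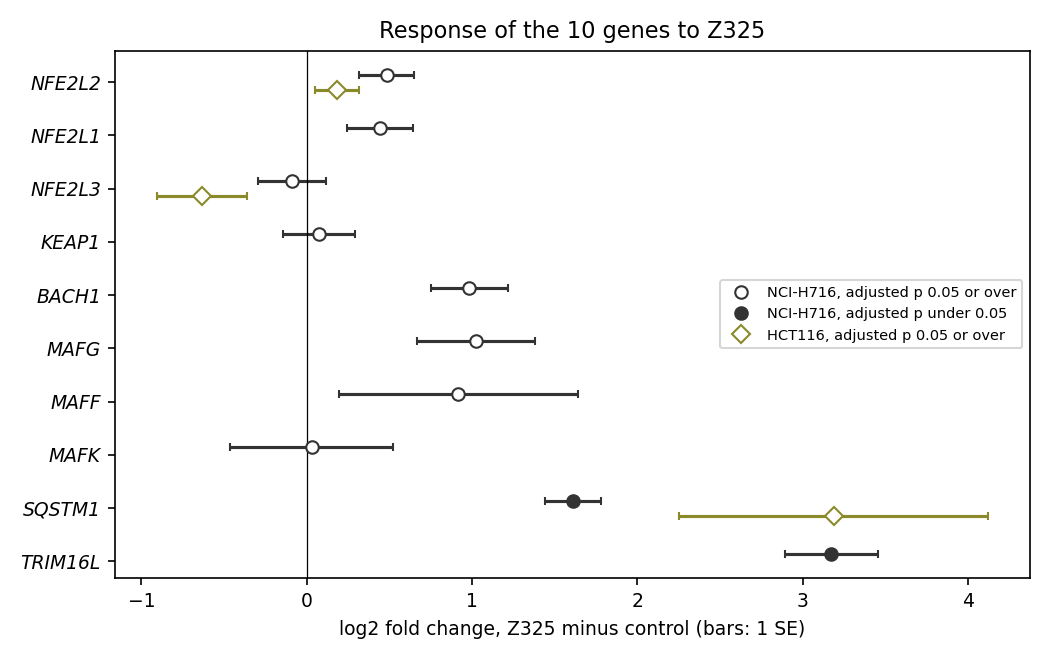
Log2 fold change of Z325 against control (points) with 1 standard error (bars), circles for NCI-H716 and diamonds for HCT116, filled where the edgeR adjusted p was under 0.05. SQSTM1 at 1.61 and TRIM16L at 3.17 in NCI-H716 are filled, and the bar of SQSTM1 in HCT116 spans 0.93 to either side of 3.19.

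TPM sets the levels of different genes side by side per transcript length, as RSEM assigned that length. In the NCI-H716 controls the order by mean TPM was NFE2L2 (33.3 ± 3.56), SQSTM1 (31.6 ± 0.742), KEAP1 (19.2 ± 2.16), NFE2L3 (7.92 ± 1.25), NFE2L1 (5.31 ± 0.58), BACH1 (4.56 ± 1.08), TRIM16L (2.87 ± 1.12), MAFG (0.785 ± 0.021), MAFK (0.67 ± 0.23) and MAFF (0.21 ± 0.014), each with the SD of 2 libraries. Neighbours in this order whose control libraries overlapped were NFE2L2 and SQSTM1, NFE2L1 and BACH1, and MAFG and MAFK. All other neighbours were apart in TPM in every control library. The place of KEAP1 depends on its RSEM length, 1007 and 894 bases in the controls. NFE2L3 was given 2525 and 2358 bases there, and NFE2L1 4396 and 3921. In CPM, which does not divide by length, the control mean of KEAP1 (17.9) was below those of NFE2L3 (22.9) and NFE2L1 (27.4). After Z325, SQSTM1 led the order at 94.5 ± 9.10 TPM, NFE2L2 followed at 43.2 ± 0.530 TPM, and TRIM16L moved from the seventh place to the third by its mean of 19.8 ± 5.83 TPM, with libraries that overlapped those of KEAP1. After Z325 the libraries of NFE2L3, NFE2L1 and BACH1 also overlapped. The small MAF genes remained the 3 lowest in both conditions.

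**Figure D3:**
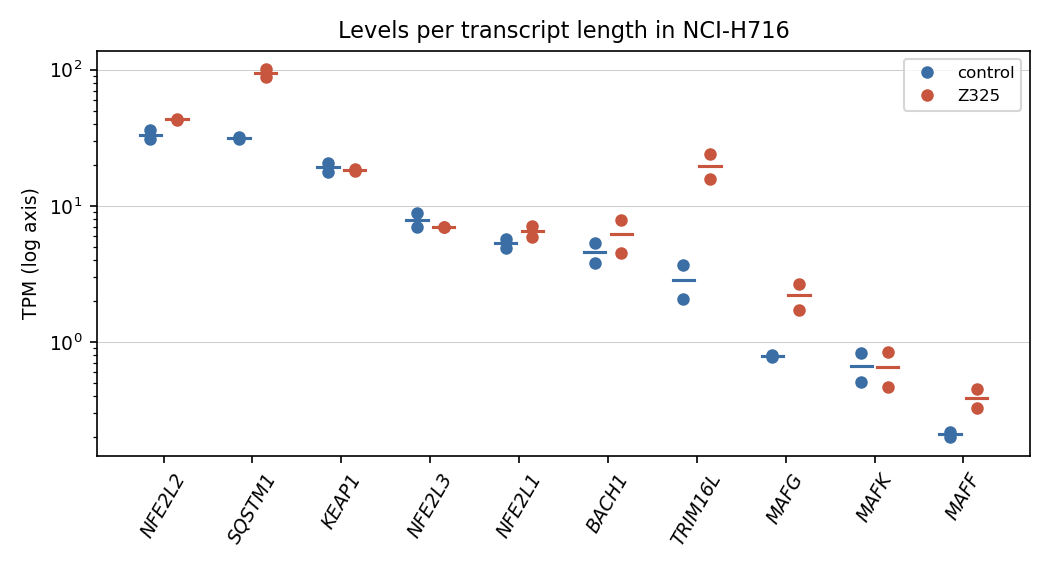
TPM of the 10 genes in NCI-H716 (log axis), ordered by their control mean, with blue points for the control libraries, red points for the Z325 libraries and a short line at each mean. SQSTM1 rises to 94.5 TPM and TRIM16L to 19.8 TPM, while KEAP1 stays between 17.7 and 20.8 TPM in all 4 libraries.

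In HCT116, 3 members passed the filter on low counts and none was called. The share of all 6491 tested genes that were called was 5.78%, with 2.83% higher and 2.94% lower (edgeR, adjusted p under 0.05). Before adjustment, 1 member was higher (SQSTM1) and 1 lower (NFE2L3) at p under 0.05, against 11.2% and 12.7% of all tested genes, or 23.9% in all, and DESeq2 called SQSTM1. Both treated libraries lay above both controls for 2 members and below for 1. Among all tested genes 24.8% lay above, 29% lay below and 53.8% in all did not overlap. NFE2L2 stood at 439 and 485 CPM in the controls and 494 and 556 CPM after Z325. The treated libraries were only just above the controls, and the log2 fold change was 0.18 (SE 0.13, edgeR adjusted p = 0.455), or 0.11 without control replicate 1. As FPKM computed here from the counts and lengths, NFE2L2 stood at 30.4 and 32.1 in the controls and 31.5 and 37.7 after Z325, and on that scale the groups overlapped.

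NFE2L3 leaned the other way in HCT116. It stood at 41.7 and 34.4 CPM in the controls and 20.4 and 29.2 CPM after Z325, both treated libraries below both controls. The log2 fold change was -0.64 (SE 0.27, edgeR adjusted p = 0.198) and did not pass. Without Z325 replicate 2, the shallow library, it was -0.87 and passed (edgeR adjusted p = 0.0357), and without Z325 replicate 1 it was -0.40 (adjusted p = 0.440). The end of NFE2L3 overlaps HNRNPA2B1, an abundant splicing factor gene on the opposite strand that covers 28.1% of its exon bases. HNRNPA2B1 was also lower after Z325 in HCT116, with a log2 fold change of -0.46 (SE 0.12, edgeR adjusted p = 0.0631), and its part in the value of NFE2L3 was not tested.

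NFE2L2 overlaps too, with 38.4% of its exon bases shared in the annotation. HNRNPA3, on the opposite strand, covers 23.4% of all its exon bases. HNRNPA3 had a log2 fold change of -0.52 in HCT116 (SE 0.20, edgeR adjusted p = 0.170) and 0.31 in NCI-H716 (SE 0.19, edgeR adjusted p = 0.432). Pooled over the control and Z325 libraries of each line, the level in HCT116 over that in NCI-H716 was 1.91 for NFE2L2. It was 1.12 for its neighbour AGPS and 0.140 for HNRNPA3. HCT116 has raw read counts and NCI-H716 has RSEM expected counts, so the lines were not counted alike. The part of the counting in these ratios was not tested.

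SQSTM1 could not be read in HCT116. The table gives it 5 and 15 counts in the controls and 148 and 5 after Z325, or 0.362 and 1.15 CPM against 11.6 and 1.43 CPM. One treated library is high and the other lies beside the controls. The fitted log2 fold change of 3.19 (SE 0.93, edgeR adjusted p = 0.0852) did not pass, and without Z325 replicate 1 it was 0.91 (SE 1.41). Without Z325 replicate 2 it was 3.96 with an adjusted p under 0.05, so the value rests on a single library.

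The low counts are not limited to SQSTM1. Of the 7 other protein-coding genes within 300 kb of it that hold at least 200 counts in NCI-H716, 4 stood in HCT116 at under 0.05 of their NCI-H716 level, against 13.1% of all 4352 protein-coding genes compared. RUFY1 and TBC1D9B stood at 0.0505 and 0.0596. CANX, the endoplasmic reticulum chaperone calnexin, had 52 and 226 counts in the HCT116 controls and 129 and 57 after Z325, against 4529 and 4199 and then 6428 and 9783 in NCI-H716. MGAT4B and MRNIP, which flank SQSTM1, had 0 counts in all 4 HCT116 libraries. HNRNPH1, a splicing factor gene farther upstream, had a ratio of 0.442. Over all genes compared the median ratio was 0.702. These levels pool the control and Z325 libraries of each line, with raw read counts in HCT116 and RSEM expected counts in NCI-H716. What lowered the counts was not tested, and the HCT116 counts of SQSTM1 are given here only as listed.

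**Figure D4:**
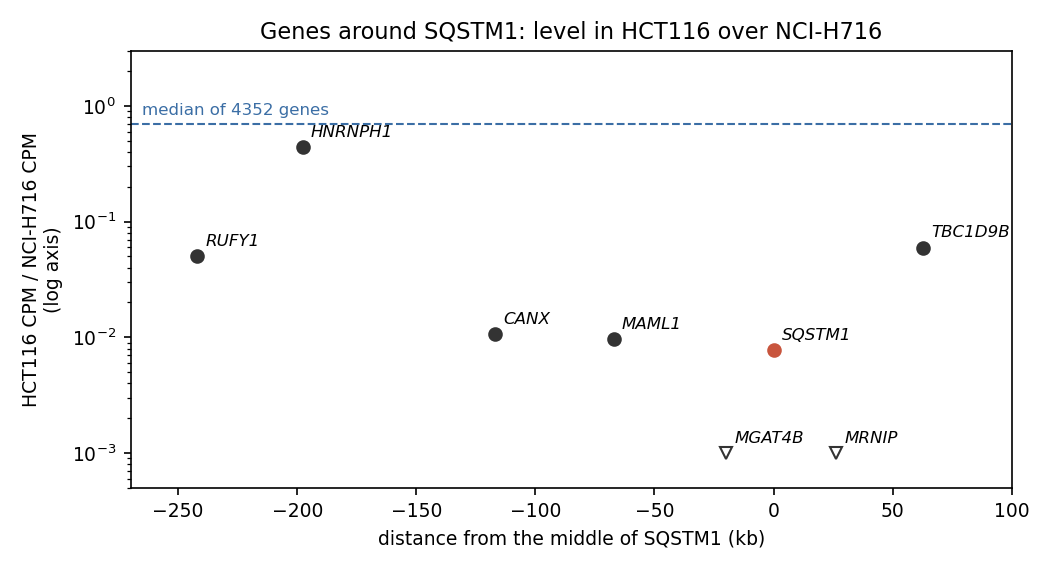
Level in HCT116 divided by level in NCI-H716 (log axis, CPM over the genes listed in both) for SQSTM1, in red, and its protein-coding neighbours. Each level pools the control and Z325 libraries of the line. The horizontal axis is the distance of their midpoints from that of SQSTM1 in kb, and open triangles at the foot mark a ratio of 0. SQSTM1 at 0.00769 lies above MGAT4B and MRNIP, both at 0, and below the other 5 neighbours, of which HNRNPH1 at 0.442 comes nearest to the dashed median of 0.702.

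MAFK in HCT116 had 0 and 2 counts in the controls and 6 and 2 after Z325. These fell below the filter and were not tested. Its ratio to NCI-H716, pooled in the same way, was 0.038. A count this low bears on neither a level nor a change.

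The fit for a difference in response between the lines held the 4 members in both tables, of which 3 were also tested within HCT116. MAFK entered although its HCT116 counts fell below the filter of that line, so its value cannot show a difference. None of the 4 passed, where 0.0654% of the 7642 genes tested did (edgeR interaction, adjusted p under 0.05). Before adjustment, SQSTM1 alone of the 4 was at p under 0.05, where 14.3% of all tested genes were, and DESeq2 called none of them. The difference, NCI-H716 minus HCT116, was 0.29 for NFE2L2 (SE 0.20, adjusted p = 0.526) and 0.54 for NFE2L3 (SE 0.34, adjusted p = 0.491) on the log2 scale. For SQSTM1 it was -1.81 (SE 0.77, adjusted p = 0.314), and without HCT116 Z325 replicate 1 it turned to 0.78. For MAFK it was -2.52 (SE 1.29, adjusted p = 0.398), from the few counts above, with -1.64 without HCT116 control replicate 1 and -5.05 without control replicate 2.

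Many of the genes that NRF2 is known to activate rose, in both lines. In NCI-H716, 31 of the 32 listed targets were tested, and 15 rose and 0 fell at an adjusted p under 0.05, which is 48.4% of them where 0.403% of all genes rose. All 31 had a log2 fold change above 0, as 49.4% of all tested genes had, with a median of 0.98. In HCT116, 11 of the 32 are listed and tested, and 6 rose and 0 fell, or 54.5% where 2.83% of all genes rose. The fold change was above 0 for 9 of the 11, as for 48.2% of all tested genes, with a median of 0.88. With limma on log2(FPKM + 1), the genes of all lists that passed fell to 4 in either line, from 15 in NCI-H716 and 9 in HCT116. The targets were already known to respond in these libraries when the list was written, so its direction is not independent evidence.

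In NCI-H716 detoxifying reductases were among the largest rises of the list. AKR1B10 rose by a log2 fold change of 5.91 from 0.227 and 0.873 CPM to 39.4 and 24.2 CPM, AKR1C2 by 3.70, AKR1C1 by 3.08 and AKR1C3 by 1.21. The AKR1C genes are close paralogs, so the split of reads among them is uncertain. OSGIN1, a growth inhibitor induced by oxidative stress, rose by 4.13 (SE 0.52). It went from 0.227 and 0.970 CPM, only 3 and 10 counts, to 9.93 and 10.2 CPM. GPX2, the gut glutathione peroxidase, rose by 2.78.

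SLC7A11 and GCLM, of cystine uptake and glutathione synthesis, rose in both lines. SLC7A11, the cystine transporter, rose by 2.25 in NCI-H716 and 2.66 in HCT116, and GCLM, the modifier subunit of glutamate-cysteine ligase, by 2.04 and 1.79. GCLC, the catalytic subunit, rose by 1.73 in HCT116, and in NCI-H716 it had a log2 fold change of 0.88 with an edgeR adjusted p of 0.0615. AKR1B10, ME1 and UGDH rose in HCT116 by 2.73, 1.24 and 0.88, and ME1 and UGDH in NCI-H716 by 1.34 and 1.33.

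The other targets that rose in NCI-H716 were TXNRD1 by 1.66, TRIM16 by 1.56, SRXN1 by 1.31, NQO1 by 1.22 and PIR by 0.98. HMOX1, heme oxygenase, had 3.19 (SE 0.68, edgeR adjusted p = 0.0813) from 0.151 and 0.679 CPM to 3.74 and 3.62 CPM. ABCC3 had 0.93 and ABCC2 0.60, and neither passed. In HCT116, TKT had -0.49, GSR 0.34, PRDX1 0.12 and EPHX1 0.42, and none of these passed.

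**Figure D5:**
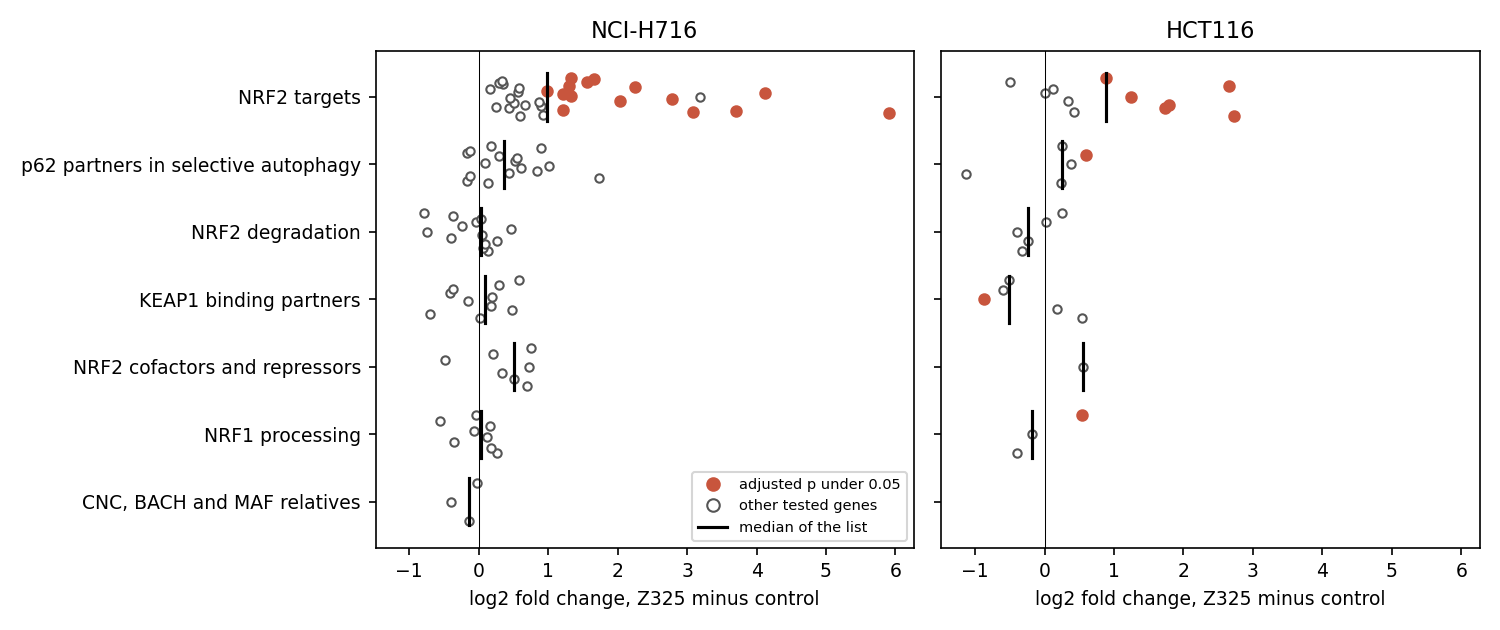
Log2 fold change of Z325 against control for every tested gene of the 7 lists, NCI-H716 on the left and HCT116 on the right, red where the edgeR adjusted p was under 0.05, with a black line at each list's median. The NRF2 targets reach 5.91 in NCI-H716 and 2.73 in HCT116, and the genes of NRF2 degradation gather around 0 in NCI-H716.

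The lists that follow are to be read against all tested genes. In NCI-H716, 0.502% of these were called, and 7.59% were higher and 9.27% lower at p under 0.05 before adjustment. In HCT116 the shares were 5.78%, 11.2% and 12.7%. The receptors and membrane tags that work with p62 in selective autophagy did not pass in NCI-H716, where 16 of the 19 listed were tested and 0 were called by edgeR, 6 were higher at an unadjusted p under 0.05 and the median was 0.37. OPTN, a receptor for damaged mitochondria, had 1.01 (SE 0.25, adjusted p = 0.118). GABARAPL1, an autophagosome tag, had 1.73 (SE 0.47, adjusted p = 0.138), TAX1BP1 0.56 (adjusted p = 0.175) and NBR1 0.61 (adjusted p = 0.1996). In HCT116, 5 of 6 listed were tested and 1 was called. TAX1BP1, a receptor that also binds ubiquitin, rose there from 473 and 456 CPM to 758 and 650 CPM, a log2 fold change of 0.60 (SE 0.13, edgeR adjusted p = 0.0390). RB1CC1 and PRKCI had 0.38 and 0.24, and neither passed.

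The machinery that destroys NRF2 showed no call. All 13 listed genes were tested in NCI-H716, with 0 called by edgeR and a median of 0.03. Before adjustment, 1 was higher and 1 lower at p under 0.05. In HCT116, 5 of them were tested, with 0 called, 1 lower before adjustment and a median of -0.24. CUL3, the scaffold KEAP1 works with, had 0.27 (SE 0.19) in NCI-H716 and -0.24 (SE 0.17) in HCT116. UBE2M, which activates cullins through NEDD8, had -0.78 (edgeR adjusted p = 0.289), GSK3B 0.47, DCAF11 -0.40 and NEDD8 -0.24 in NCI-H716, and none passed. In HCT116, CUL1 had -0.32, FBXW11 -0.40 and SKP1 0.25.

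Of the listed binding partners of KEAP1, 10 were tested in NCI-H716 with 0 called by edgeR and a median of 0.10. Before adjustment, 2 were lower and none higher at p under 0.05. PTMA had -0.38, DPP3 -0.69, FAM117B 0.48 and SESN2 0.58. In HCT116, 5 were tested and 1 fell. MCM3, known above all as a subunit of the replicative helicase, went from 276 and 278 CPM to 140 and 162 CPM, a log2 fold change of -0.87 (SE 0.14, edgeR adjusted p = 0.0140). PTMA had -0.60, SESN1 -0.51 and FAM117B 0.53 there without passing.

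Cofactors and repressors of NRF2 gave 0 calls among 7 in NCI-H716 and among 1 in HCT116. In NCI-H716, 2 were higher at an unadjusted p under 0.05 and the median was 0.51, with EP300, a histone acetyltransferase, at 0.72, CHD6 at 0.51, ATF3 at 0.69 and MED16 at -0.49. ATF3 had 0.56 in HCT116. Genes listed for the processing of NRF1 gave 0 calls among 8 in NCI-H716, with a median of 0.04. Among them UFD1 had -0.56, HCFC1 -0.35, DDI2 0.27 and OGT 0.16. In HCT116, NGLY1, the enzyme that strips sugars from NRF1, rose by 0.53 (SE 0.13, edgeR adjusted p = 0.0479) as 1 of 3 tested, and DDI2 and FBXW7 had -0.40 and -0.18.

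The remaining relatives, BACH2 and the MAF family members outside the small MAF group, were low. In NCI-H716, 3 of 6 were tested and 0 were called or reached an unadjusted p under 0.05, with MAF at -0.39, BACH2 at -0.14 and NRL at -0.02. In HCT116, 2 are listed and none was tested.

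The genes whose pattern over all 8 libraries lay closest to that of SQSTM1, by the root mean square difference of log2 CPM from the mean of the controls of each line, included DNAJB4 (0.727), ARRDC3 (0.764), SMIM14 (0.784) and ERICH2 (0.793) among 5014 genes. The 4 HCT116 libraries enter that measure with the low counts described above. Over the 4 NCI-H716 libraries alone, an alternative taken up after the values were seen, DNAJB4, a heat shock co-chaperone, was again the nearest of 14142 genes, with a difference of 0.0734. DNAJB4 rose by 1.58 in NCI-H716 (edgeR adjusted p = 0.0074). The measure includes the treatment itself, so it is a description with no test.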

How the data were processed

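RNA was amplified with a single-cell full-length kit (SMART-Seq2). The submitters' processing notes name Bowtie2 2.5.0, featureCounts and hg38, while the methods name STAR and RSEM. For NCI-H716 the authors deposited RSEM expected counts with the TPM and FPKM computed from them, and for HCT116 raw read counts, of which 28043 genes were used and 4 broken lines left out. Expected counts were rounded. Each line was fitted in edgeR 4.0.16 (TMM, filterByExpr, quasi-likelihood test), and p-values were adjusted by Benjamini-Hochberg over all tested genes. CPM values are TMM-normalised over tested genes. Differences between lines were tested as an interaction over genes in both tables. Alternatives used DESeq2 1.42.0, limma 3.58.1 on log2(FPKM + 1) and log2(FPKM + 0.1), other filters and scalings, a replicate block, and each library left out. Sequences came from hg38, with starts from RefSeq.

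The study calls the pairs biological duplicates, and the labels name no separate cultures, so p-values measure the spread between these libraries. Members and lists were chosen with earlier results of these data known. Named were all members, list genes that passed, and otherwise up to 4 per list and line with the smallest p. The steps were tested on simulated data. The methods state a two-tailed test on FPKM between groups, and a count test was used here in its place. Counting error alone limits genes with few counts. A gene that the rule for likeness to SQSTM1 selects is not reported here.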

Additional observations from a re-analysis of the deposited data

How the results depend on the processing

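Across 257 combinations of 22 results and an alternative, 198 concern single member values, of which 174 kept direction and side of the threshold, 5 lost the call, 12 gained it and 7 changed sign. The members called in HCT116 went from 0 to 1 with DESeq2, with no filter and with all 8 libraries in 1 fit, SQSTM1 each time, and lay between 0 and 2 when a library was left out. The members called in NCI-H716 went from 2 to 0 with limma at either pseudocount, where SQSTM1 had an adjusted p of 0.0555 and 0.0531 and limma called 6 genes in all, to 0 with all 8 libraries in 1 fit, which holds SQSTM1 (adjusted p 0.134) but not TRIM16L, and lay between 2 and 3 when a library was left out. BACH1 was called with DESeq2 (adjusted p 0.0427) and with no filter (0.0151). With limma its value was 0.42 for log2(FPKM + 1) and 0.47 for log2(FPKM + 0.1), and neither passed. When a library was left out, the value of BACH1 lay between 0.84 and 1.13. List genes called went from 9 to 4 in HCT116 and from 15 to 4 in NCI-H716 with limma at either pseudocount, and lay between 4 and 12 and between 10 and 25 when a library was left out. With a replicate block, NCI-H716 gave 4 members, 37 list genes and 2397 of all genes, where NFE2L2 (0.48, adjusted p 0.0029) and BACH1 (0.97, adjusted p 0.000154) also passed, and HCT116 gave 0 members and 8 list genes. The labels do not say that replicate numbers pair libraries, and deviations of same-numbered libraries correlated at -0.03 in HCT116 and 0.198 in NCI-H716. Members whose response differed between the lines went from 0 to 1 with no filter (SQSTM1), and lay between 0 and 1 when a library was left out. All genes called in NCI-H716, 71 in the report, were 99 with library size alone, 364 with DESeq2, 777 with no filter and 38 to 1386 without a library. In HCT116, 375 became 767 with DESeq2, 683 with no filter, 615 with 10 counts in every library, 47 and 37 with limma and 23 to 1076 without a library.

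Signs changed for small values only, apart from SQSTM1. KEAP1 in NCI-H716 was -0.0032 and -0.0031 with limma and -0.0129 to 0.1835 when a library was left out. In the same way NFE2L3 in NCI-H716 ran from -0.1811 to 0.0236, with the positive value without control replicate 2. MAFK in NCI-H716 ran from -0.4006 to 0.4106, with -0.2728 without control replicate 1 and the lowest value without Z325 replicate 1. The difference between lines in SQSTM1 ran from -2.7875 to 0.783, with the positive value without HCT116 Z325 replicate 1. The cause was not tested for any of these. With 2 libraries a group, and counts under 20 for MAFF in NCI-H716 and for most HCT116 libraries of SQSTM1 and MAFK, changes in these genes were not resolved.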
